A study of Mus musculus with 6 samples.

Results

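Keratins are the main structural proteins of the corneal epithelium, and 10 of them were read here in bulk RNA-seq of mouse corneal epithelial cells. The set was chosen by gene symbol and held the cornea-specific keratin *Krt12*, the basal keratins *Krt5*, *Krt14* and *Krt15*, the conjunctival and limbal keratins *Krt13*, *Krt4* and *Krt19*, the simple-epithelial keratins *Krt8* and *Krt18*, and the epidermal keratin *Krt10*. All 10 were among the 17784 genes listed. The ablated group held 3 samples from Prrx1-CreERT;*Ptch1* f/f mice and is called Ptch1-ablated, and the control group held 3 samples from control mice. All 6 samples were labelled as tamoxifen-treated, with 3 doses and a period of 2 months. The labels give an age of 10 weeks without saying whether it is the age at treatment or at collection, and the study's text gives 2 months at induction. The labels and the study's methods, as used here, do not spell out the control genotype or whether animals were pooled. Prrx1-CreERT is a tamoxifen-inducible recombinase driven from a mesenchymal gene and is active in the keratocytes of the stroma, in the corneal endothelium and in other ocular mesenchyme. *Ptch1*, the Hedgehog receptor that holds the pathway off, was therefore deleted beneath the epithelium. The study's qPCR method separates the epithelium with EDTA, and its RNA-seq method names only corneal epithelial cells as the source of RNA.

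Keratin filaments form from pairs of a type I and a type II chain, so a cell needs both types in matched amounts. In the cornea the pair of K5 and K12 fills the differentiated layers, while K5 and K14 is the pair of basal cells in stratified epithelia. K15 and K19 are used as markers of the limbus, the rim of the cornea that holds its stem cells. K4 and K13 pair in mucosal epithelia such as the conjunctiva, K8 and K18 pair in simple epithelia, and K10 pairs with K1 in the suprabasal epidermis. The comparison asked whether the keratin make-up of the epithelium differed after deletion in the stroma.

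The promoters of *Krt12*, *Krt5* and *Krt13* are shown as those of the cornea-specific type I keratin, its type II partner and the most abundant limbal and conjunctival keratin of the control samples. Each run covers 250 bases before and 50 bases after the start of transcription, on the minus strand, from the RefSeq promoter table of build GRCm38.p6. The *Krt12* start used by the table lies 334 bases inside the annotated gene, and those printed for *Krt5* and *Krt13* lie at the edge of theirs. The windows are chr11:99422210-99422509 for *Krt12*, chr15:101712856-101713155 for *Krt5* and chr11:100121517-100121816 for *Krt13*. Capitals mark ATAAA between 40 and 15 bases before the start on the gene's strand, and CACCC on either strand, which reads GGGTG on the other. CACCC is the core of sites that Krüppel-like factors can bind.
Krt12: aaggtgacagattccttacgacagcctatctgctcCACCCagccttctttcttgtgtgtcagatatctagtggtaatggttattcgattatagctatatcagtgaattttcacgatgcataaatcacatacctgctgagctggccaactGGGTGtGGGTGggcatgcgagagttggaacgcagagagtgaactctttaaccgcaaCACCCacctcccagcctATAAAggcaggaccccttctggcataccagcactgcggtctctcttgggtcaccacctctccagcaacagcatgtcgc
Krt5: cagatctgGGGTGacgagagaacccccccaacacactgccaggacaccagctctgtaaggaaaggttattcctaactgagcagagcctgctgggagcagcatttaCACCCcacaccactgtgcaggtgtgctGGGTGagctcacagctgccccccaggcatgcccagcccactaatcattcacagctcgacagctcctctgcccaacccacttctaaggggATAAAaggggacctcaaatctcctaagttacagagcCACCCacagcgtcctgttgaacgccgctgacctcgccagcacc
Krt13: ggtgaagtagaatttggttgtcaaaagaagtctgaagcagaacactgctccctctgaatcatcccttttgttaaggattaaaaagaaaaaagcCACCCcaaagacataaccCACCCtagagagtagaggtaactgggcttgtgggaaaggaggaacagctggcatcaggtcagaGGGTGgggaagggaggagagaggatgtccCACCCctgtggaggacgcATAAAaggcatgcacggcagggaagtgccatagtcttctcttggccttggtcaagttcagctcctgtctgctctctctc
The ATAAA element began 28 bases before the start in *Krt12* and 29 bases before it in *Krt5* and *Krt13*. *Krt10* also held it, 25 bases before the start, and *Krt14*, *Krt8* and *Krt18* did not hold it in those positions. It was present there in 4.68% of 32851 RefSeq promoters. CACCC matches numbered 4 in each of the windows of *Krt12*, *Krt5* and *Krt13*, 2 in *Krt8* and *Krt18*, and 1 in *Krt14* and *Krt10*, against a median of 1 over all promoters, of which 57.5% held at least 1. A second *Krt13* window in the table held 1 CACCC match and no ATAAA in those positions. Promoters of 7 of the 10 keratins were matched; *Krt15*, *Krt4* and *Krt19* were not. The *Krt14* and *Krt10* starts lie 1480 and 8085 bases inside their annotated genes, so those windows are not at the gene's edge. These matches are descriptions of the letters and not evidence of binding.

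Total expected counts, the RSEM estimates of reads per gene, lay between 20296741 and 20625813 per sample, so depth was even. A count of 3 corresponded to between 0.145 and 0.148 CPM, the count scaled to library size. Levels are given as TPM, a transcript abundance that is scaled for length and depth within each sample and may be compared between genes. Differences are log2 fold changes, Ptch1-ablated over control, with standard errors (SE) from one edgeR quasi-likelihood fit of all 12999 tested genes, and p values were adjusted by the Benjamini-Hochberg method over all of them. *Ptch1* itself was at 7.31, 9.70 and 10.2 TPM in the control samples and at 5.28, 6.33 and 7.01 TPM in the Ptch1-ablated samples. Its log2 fold change was -0.51 (SE 0.13, edgeR adjusted p = 0.0401), in a tissue that the recombinase was not directed at. The corneal label was borne out by *Krt12*, which had the highest TPM of any gene in all 6 samples. Control replicate 3 stood apart in several stromal genes, with the collagen gene *Col1a2* at 25.98 TPM against 0.08 to 2.62 TPM in the other 5 samples. Also high there were *Col6a1* at 4.83 against 0.03 to 0.34 TPM, *Vim* at 20.8 against 0.96 to 2.79 TPM and *Prrx1* at 4.66 against 0.05 to 0.78 TPM. The stromal gene *Dcn*, on 1 to 23 counts, did not stand apart there, at 0.36 TPM against 0.54 to 1.35 TPM in Ptch1-ablated samples. Of the 12 corneal epithelium markers tested, 2 passed the adjusted p at any fold, *Krt14* and the tight-junction gene *Cldn4*, both higher.

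Of the 10 keratins, 10 passed the filter on low counts and 1, *Krt14*, met both limits for a call, an adjusted p no larger than 0.05 and a change of 2-fold or more. Over all tested genes 3.23% were called by that rule, 2.34% higher and 0.892% lower. At any fold change 2 passed, *Krt14* higher and *Krt8* lower, against a background of 14.0%, of which 7.61% were higher and 6.41% lower. The log2 fold change was above 0 in 8 of the 10, with a median of 0.65, whereas over all tested genes 48.5% were above 0 and the median was -0.01. With CPM, the groups did not overlap for 3 keratins, *Krt14*, *Krt13* and *Krt8*, against 39.9% of all tested genes. With TPM they did not overlap for 2, *Krt14* and *Krt8*, but the share of all genes without overlap in TPM was not computed.

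**Figure D1:**
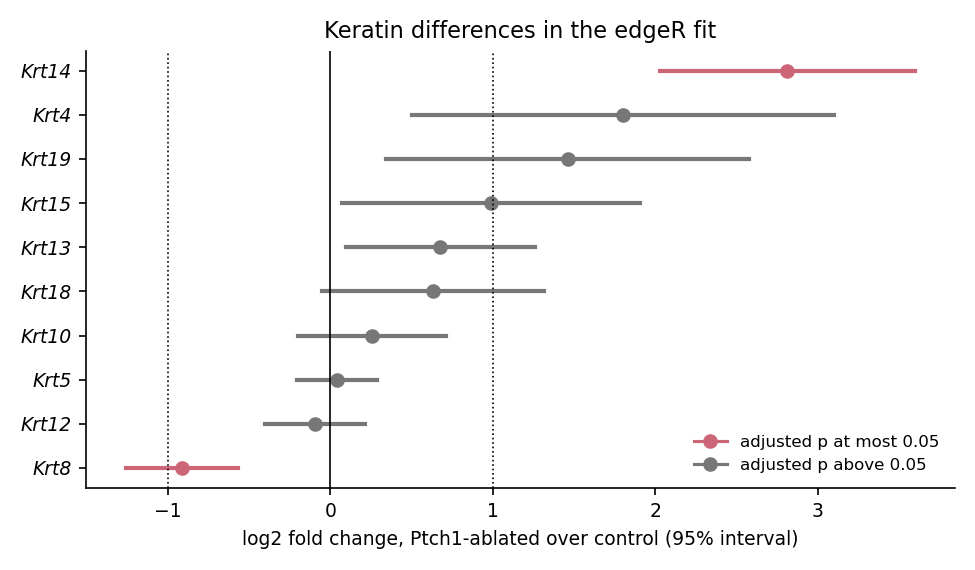
Log2 fold change of each keratin, Ptch1-ablated over control (points), with its 95% interval from the edgeR fit (bars). *Krt14* at 2.81 and *Krt8* at -0.91 passed the adjusted p (red), and dotted lines mark a fold change of 2.

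The most abundant pair of the cornea, *Krt5* and *Krt12*, did not differ between the groups beyond the spread of the samples. *Krt12* was at 48270, 48396 and 44025 TPM in control replicates 1, 2 and 3 and at 37107, 49487 and 41137 TPM in Ptch1-ablated replicates 1, 2 and 3. The groups overlapped, since Ptch1-ablated replicate 2 was the highest of the 6 samples and replicate 1 the lowest. The log2 fold change was -0.10 (SE 0.13, edgeR adjusted p = 0.645), and its 95% interval of -0.41 to 0.21 leaves room for a modest difference in either direction. *Krt5*, the type II partner of both *Krt12* and *Krt14*, was at 25216, 25015 and 23428 TPM in control and at 23375, 26326 and 24111 TPM in Ptch1-ablated samples. Its groups overlapped as well, with a log2 fold change of 0.04 (SE 0.11, 95% interval -0.20 to 0.29, adjusted p = 0.816). *Krt5* held rank 2 to 4 among all genes. Of its 50-base stretches 8.52% were also found in other genes, mostly in *Krt6a* with 6.98%, in the longest coding transcripts of GENCODE M21.

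*Krt14*, the basal type I keratin, rose 7.02-fold. It was at 534, 535 and 644 TPM in the control samples and at 5798, 3254 and 2420 TPM in the Ptch1-ablated samples. The control samples lay close together, the Ptch1-ablated samples were spread more widely, and the lowest of these was 3.76 times the highest control. The log2 fold change was 2.81 (SE 0.34, 95% interval 2.03 to 3.60, edgeR adjusted p = 0.00769). By TPM, *Krt14* moved from ranks 206 to 238 among all genes in control to ranks 18 to 31 in Ptch1-ablated samples. The call was lost without control replicate 2, where the log2 fold change was 2.75 with an edgeR adjusted p of 0.0538. In that fit far fewer genes were called overall than with all 6 samples, 59 against 420. In bulk RNA, more cells of a type and more RNA per cell cannot be told apart, and neither can fewer cells and less RNA per cell.

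*Krt14* resembles the stress keratins *Krt16* and *Krt17* in sequence, and 14.4% of its 50-base stretches were shared with other genes, 11.4% with *Krt16* and 3.34% with *Krt17*. Reads that fit more than 1 gene are divided by RSEM, so a part of the *Krt14* estimate is uncertain. Subtracting every *Krt16* count from *Krt14*, an alternative chosen after the values were seen, left 7937, 7812 and 9331 counts in control and 48686, 33371 and 25452 counts in Ptch1-ablated samples. The groups still did not overlap, and the log2 fold change was 2.16 (SE 0.23, edgeR adjusted p = 0.00622).

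**Figure D2:**
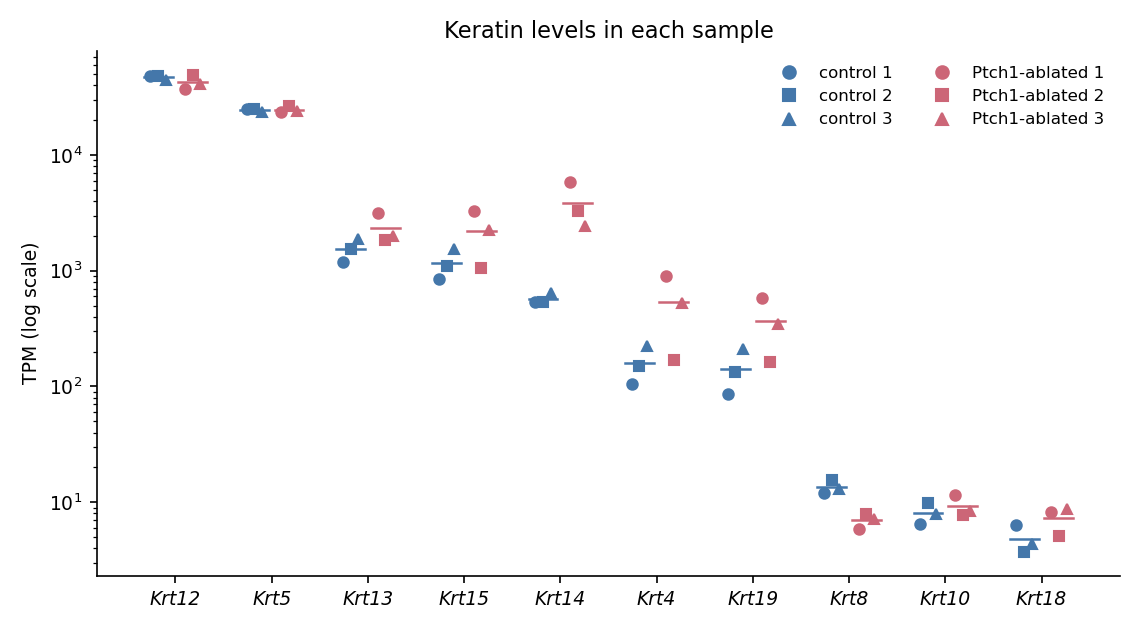
TPM of the 10 keratins on a log axis, with control (blue) and Ptch1-ablated (red) samples as points marked by replicate number and group means as lines. *Krt12* and *Krt5* lie highest in every sample, and *Krt14* moves from 534 to 644 TPM in control to 2420 to 5798 TPM. Of the 10, only *Krt14* and *Krt8* show no overlap, and the share of all genes without overlap in TPM was not computed.

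Ratios within a sample do not depend on how libraries are scaled, and they place *Krt14* against its partner. The *Krt5*:*Krt14* ratio of TPM was 47.2, 46.7 and 36.4 in control and 4.03, 8.09 and 9.96 in Ptch1-ablated samples. Each Ptch1-ablated sample thus held far less *Krt5* per *Krt14* than any control, a log2 difference of -2.65 (SE 0.41). The *Krt12*:*Krt14* ratio, which sets the differentiated against the basal type I keratin, was 90.4, 90.4 and 68.4 in control and 6.40, 15.2 and 17.0 in Ptch1-ablated samples, a log2 difference of -2.80. The *Krt5*:*Krt12* ratio stayed in a narrow range, at 0.522, 0.517 and 0.532 in control and 0.630, 0.532 and 0.586 in Ptch1-ablated samples, with a log2 difference of 0.15.

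For 9 such ratios, a two-sided exact permutation test of 3 against 3 samples can go no lower than p = 0.1, so none could pass 0.05. That smallest value was reached by 5 ratios, *Krt5*:*Krt14*, *Krt12*:*Krt14*, *Krt15*:*Krt14*, *Krt8*:*Krt18* and *Krt8*:*Krt19*, each with an adjusted p of 0.18. The other 4 gave exact p values of 0.2 for *Krt5*:*Krt12* and 0.3 for *Krt5*:*Krt15*, *Krt12*:*Krt15* and *Krt4*:*Krt13*, each with an adjusted p of 0.3. The *Krt15*:*Krt14* ratio was 1.59, 2.05 and 2.37 in control and 0.568, 0.328 and 0.932 in Ptch1-ablated samples. *Krt15* was therefore the more abundant of these basal type I keratins in every control sample and the less abundant in every Ptch1-ablated sample.

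**Figure D3:**
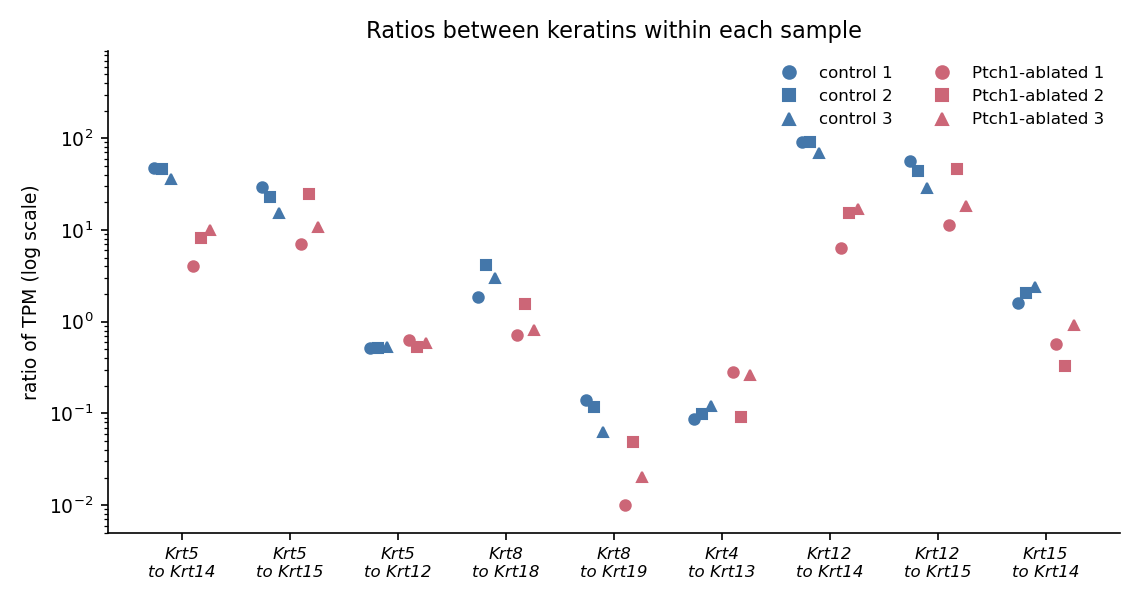
Ratio of TPM for 9 keratin pairs on a log axis, 1 point per sample (control blue, Ptch1-ablated red, marker by replicate number). *Krt5*:*Krt14* runs from 36.4 to 47.2 in control and from 4.03 to 9.96 in Ptch1-ablated samples, while *Krt5*:*Krt12* stays between 0.517 and 0.630 in all 6.

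*Krt15*, *Krt13*, *Krt4* and *Krt19*, the keratins of the limbus and conjunctiva, all had log2 fold changes above 0, and none passed the test. *Krt15* was at 847, 1097 and 1528 TPM in control and at 3296, 1066 and 2257 TPM in Ptch1-ablated samples. Ptch1-ablated replicate 2 lay within the control range and the other two lay above it, giving a log2 fold change of 0.99 (SE 0.39, 95% interval 0.07 to 1.91, edgeR adjusted p = 0.126). *Krt13* was at 1193, 1553 and 1877 TPM in control and at 3182, 1843 and 2009 TPM in Ptch1-ablated samples. Here the TPM of Ptch1-ablated replicate 2 fell just below the highest control while its CPM stood just above it, and the log2 fold change was 0.68 (SE 0.25, adjusted p = 0.107).

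*Krt4*, the type II partner of *Krt13*, was at 105, 152 and 223 TPM in control and at 898, 170 and 528 TPM in Ptch1-ablated samples. Again replicates 1 and 3 stood above every control and replicate 2 among them, with a log2 fold change of 1.80 (SE 0.56, 95% interval 0.50 to 3.10, edgeR adjusted p = 0.0685). *Krt19*, a type I keratin that lacks most of the tail domain, was at 85.6, 133 and 209 TPM in control and at 587, 162 and 350 TPM in Ptch1-ablated samples. The same 2 samples were high, and the log2 fold change was 1.46 (SE 0.48, 95% interval 0.34 to 2.58, adjusted p = 0.0793). The *Krt4*:*Krt13* ratio was 0.0878, 0.0976 and 0.119 in control and 0.282, 0.0921 and 0.263 in Ptch1-ablated samples, so *Krt4* was high relative to its partner in those same 2 samples.

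These 4 keratins shared 1 order of samples. In control all were lowest in replicate 1 and highest in replicate 3, and in Ptch1-ablated samples all were lowest in replicate 2 and highest in replicate 1. The summed TPM of *Krt15*, *Krt13*, *Krt4* and *Krt19* was 1.82 times as high in the Ptch1-ablated mean as in the control mean, with an exact permutation p of 0.2. Without Ptch1-ablated replicate 2, *Krt15*, *Krt4* and *Krt19* passed the test with log2 fold changes of 1.32, 2.22 and 1.81, and edgeR adjusted p values of 0.0390, 0.0229 and 0.0410. Without Ptch1-ablated replicate 1 they were 0.53, 1.13 and 0.90, with no call, and *Krt13* was 0.34. Control replicate 3, the sample with higher *Col1a2*, *Col6a1*, *Vim* and *Prrx1*, was also the highest control for *Krt14*, *Krt15*, *Krt13*, *Krt4* and *Krt19*. Without it *Krt14* had a log2 fold change of 2.89 (edgeR adjusted p = 0.0281), and *Krt15*, *Krt13*, *Krt4* and *Krt19* had 1.22, 0.82, 2.10 and 1.82, still with no call. The part of stromal cells in these keratin values was not tested. *Krt4* also passed with DESeq2 (log2 fold change 1.80, adjusted p = 0.0405).

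**Figure D4:**
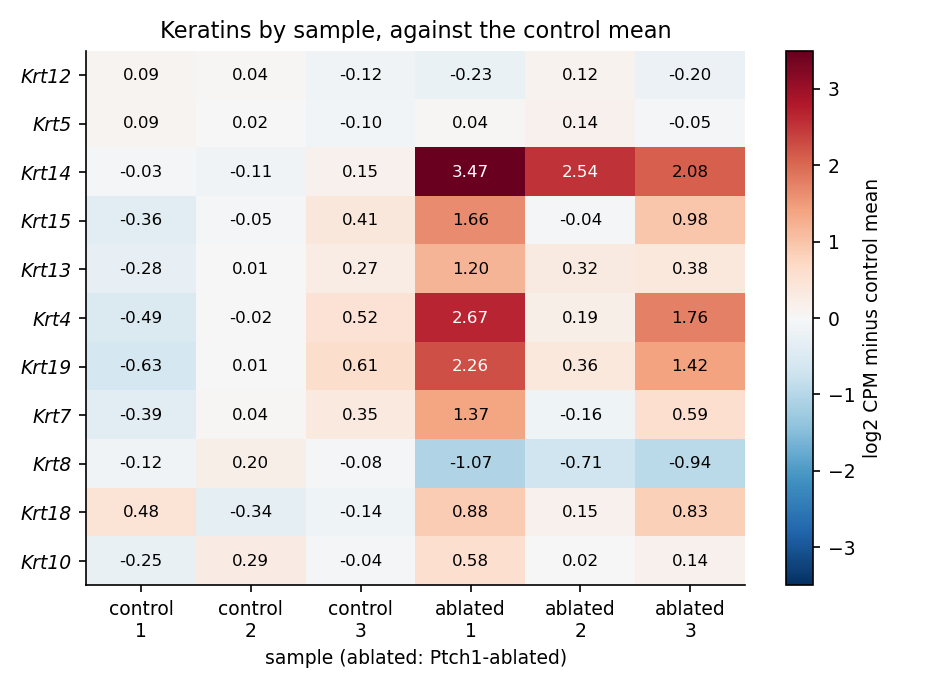
Log2 CPM of the 10 keratins and *Krt7* in each sample, as the difference from the control mean of that gene (colour and printed value). *Krt14* is between 2.08 and 3.47 in the Ptch1-ablated samples, whereas *Krt15*, *Krt4* and *Krt19* are raised in Ptch1-ablated replicates 1 and 3 and between -0.04 and 0.36 in replicate 2.

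Markers of neighbouring cells were read beside these keratins, since isolated corneal epithelium can carry limbal or conjunctival cells. Of 11 limbal markers tested, *Krt15* among them, 1 was higher and 1 lower at any fold, the integrin *Itgb1* at 0.36 and the drug transporter *Abcg2* at -0.53. Without *Krt15* their summed TPM was 1009, 1185 and 1457 in control and 1141, 1494 and 1555 in Ptch1-ablated samples, and the limbal gene *Gpha2* had a log2 fold change of 0.26 (edgeR adjusted p = 0.392). Unlike *Krt15*, that sum was higher in Ptch1-ablated replicate 2 than in replicate 1, but its genes differed in this. *Ifitm3*, a large part of the sum, was at 119, 212 and 489 TPM in control and at 282.5, 497 and 496 TPM in Ptch1-ablated samples. Its order in control was that of *Krt15*, but among Ptch1-ablated samples it was lowest in replicate 1. *Gpha2* was at 58.4, 51.1 and 78.9 TPM in control and at 86.7, 60.1 and 71.6 TPM in Ptch1-ablated samples. Like *Krt15*, it was highest in control replicate 3 and, among Ptch1-ablated samples, highest in replicate 1 and lowest in replicate 2. Of the conjunctival and goblet cell markers, 7 were tested, and most were keratins of the set itself. They were *Krt13*, *Krt4*, *Krt19*, *Krt8*, *Krt18*, *Krt7* and *Agr2*. Of these 1 passed, *Krt8*, which was lower. *Muc5b*, *Tff1*, *Gp2* and *Galnt5* had at most 3 counts in every sample. Without the keratins of the set, the list's summed TPM was 31.4, 46.3 and 56.6 in control and 87.9, 34.6 and 60.9 in Ptch1-ablated samples, and most of it was *Krt7*. *Krt7* had the same order of samples as *Krt4* and *Krt19*, with a log2 fold change of 0.71 (edgeR adjusted p = 0.217). The secretory-cell gene *Agr2* was at 7.31, 12.6 and 14.4 TPM in control and at 9.72, 5.81 and 11.04 TPM in Ptch1-ablated samples. It shared the control order and was also lowest in Ptch1-ablated replicate 2, but was highest in replicate 3 of that group. The part of limbal or conjunctival cells in the keratin values was not tested.

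Ptch1-ablated replicate 1, the highest sample for *Krt14*, *Krt15*, *Krt13*, *Krt4* and *Krt19*, also held *S100a9* at 373 TPM and *S100a8* at 78.8 TPM, calcium-binding proteins of neutrophils and of stressed epithelium. In the other 5 samples *S100a9* was at 0.64 to 7.02 TPM and *S100a8* at no more than 0.94 TPM. The pan-leukocyte gene *Ptprc* was at 0.02 TPM in that sample and at most 0.20 TPM in any. The summed TPM of the 13 immune markers was 666 in that sample and 130 to 185 in the others. The 4 that passed the filter on low counts, *Cd68*, *Itgam*, *Cd74* and *H2-Aa*, did not pass the edgeR test. *S100a9*, *S100a8* and *Ptprc* were not among the genes tested. The relation of these values to the keratins was not tested. Without this sample *Krt14* had a log2 fold change of 2.33.

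*Krt8*, a simple-epithelial type II keratin found at low level in the cornea, fell. It was at 11.98, 15.6 and 13.0 TPM in control and at 5.90, 7.96 and 7.10 TPM in Ptch1-ablated samples. Every Ptch1-ablated sample lay below every control, with a log2 fold change of -0.91 (SE 0.15, 95% interval -1.26 to -0.57, edgeR adjusted p = 0.0139), which falls short of a fold change of 2. These values rest on 102 to 261 counts per sample. Of its 50-base stretches 26.9% were shared with the pseudogene *Krt8-ps*, so its count is uncertain to that extent. Without control replicate 2 the log2 fold change was -0.81 and the edgeR adjusted p 0.0692. In that fit 93 genes passed the adjusted p at any fold, against 1822 with all 6 samples.

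*Krt18*, the type I partner of *Krt8*, did not pass the test. It was at 6.41, 3.73 and 4.37 TPM in control and at 8.20, 5.09 and 8.68 TPM in Ptch1-ablated samples. The groups overlapped on 48 to 109 counts, and the log2 fold change was 0.63 (SE 0.29, 95% interval -0.05 to 1.31, edgeR adjusted p = 0.177). The *Krt8*:*Krt18* ratio was 1.87, 4.19 and 2.97 in control and 0.720, 1.56 and 0.818 in Ptch1-ablated samples, a log2 difference of -1.55 (SE 0.48) between groups that did not overlap. *Krt8* exceeded *Krt18* in all 3 control samples and in 1 of the 3 Ptch1-ablated samples. Against *Krt19*, the other possible partner, the *Krt8*:*Krt19* ratio was 0.140, 0.117 and 0.0621 in control and 0.0101, 0.0492 and 0.0203 in Ptch1-ablated samples.

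*Krt10*, the suprabasal type I keratin of skin, stayed at the level of trace transcripts. It was at 6.54, 9.88 and 7.88 TPM in control and at 11.6, 7.72 and 8.47 TPM in Ptch1-ablated samples. The groups overlapped, with a log2 fold change of 0.25 (SE 0.20, 95% interval -0.20 to 0.71, edgeR adjusted p = 0.401). Its type II partner *Krt1* fell, from 4.55, 5.30 and 5.05 TPM to 2.58, 3.05 and 3.68 TPM, with a log2 fold change of -0.64 (adjusted p = 0.0401). Of the 9 epidermal differentiation markers tested, 3 passed as higher, *Flg*, *Ivl* and *Casp14*, and 2 as lower, *Dsg1a* and *Krt1*. *Ivl*, a cornified-envelope precursor, was at 12.6 to 16.4 TPM in control and 21.0 to 35.7 TPM in Ptch1-ablated samples, while *Flg* was at or below 0.10 TPM in all 6.

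The order of levels in control ran from *Krt12* through *Krt5*, *Krt13*, *Krt15*, *Krt14*, *Krt4*, *Krt19*, *Krt8* and *Krt10* to *Krt18*. Neighbours whose ranges overlapped were *Krt13* with *Krt15* and *Krt4* with *Krt19*. Within each of the 3 control samples, *Krt13* still exceeded *Krt15* and *Krt4* exceeded *Krt19*. In Ptch1-ablated samples *Krt14* stood next after *Krt5* by its mean, followed by *Krt13*, *Krt15*, *Krt4*, *Krt19*, *Krt10*, *Krt18* and *Krt8*. There the ranges overlapped between *Krt14* and *Krt13*, *Krt13* and *Krt15*, *Krt4* and *Krt19*, *Krt10* and *Krt18*, and *Krt18* and *Krt8*. Within samples, *Krt14* exceeded *Krt13* and *Krt4* exceeded *Krt19* in all 3. *Krt13* exceeded *Krt15* in 1 sample, and *Krt10* exceeded *Krt18* and *Krt18* exceeded *Krt8* in 2 each. Spread among replicates was larger for the keratins of middle level, since the coefficient of variation in Ptch1-ablated samples was 14.8% for *Krt12* and 6.24% for *Krt5* but 46.0% for *Krt14*, 50.6% for *Krt15* and 68.5% for *Krt4*.

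The summed level of the 10 keratins did not move with the group beyond the spread. It was 75048 ± 2694 TPM in control and 76478 ± 5117 TPM in Ptch1-ablated samples (SD, n = 3 each, exact permutation p = 0.8), or 7.50% and 7.65% of all transcripts. Without *Krt12* and *Krt5* the remaining 8 summed to 0.360% and 0.930% of transcripts, 2.58 times as much, between groups that did not overlap (exact permutation p = 0.1, the smallest possible). All 46 listed keratins made up 8.51% and 9.31% (exact p = 0.2).

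Within the type I keratins, the mean share of *Krt12* was 93.1% in control and 80.3% in Ptch1-ablated samples, although its TPM was not called. The share of *Krt14* was 1.14% and 7.19%, that of *Krt15* 2.31% and 4.23%, that of *Krt13* 3.07% and 4.44%, and that of *Krt16* 0.0279% and 2.80%. By sample, *Krt12* held 94.7%, 93.5% and 91.0% in control and 69.9%, 87.0% and 84.0% in Ptch1-ablated samples, so that replicate 1 again stood farthest from control. Within the type II keratins, *Krt5* held 70.7% and 61.4%, and *Krt6a* 12.4% and 18.7%. The ratio of all type II to all type I keratins was 0.686, 0.680 and 0.702 in control and 0.784, 0.724 and 0.768 in Ptch1-ablated samples, without overlap (exact permutation p = 0.1). The shares, the type ratio and the sums other than that of all 10 were chosen after values were seen.

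**Figure D5:**
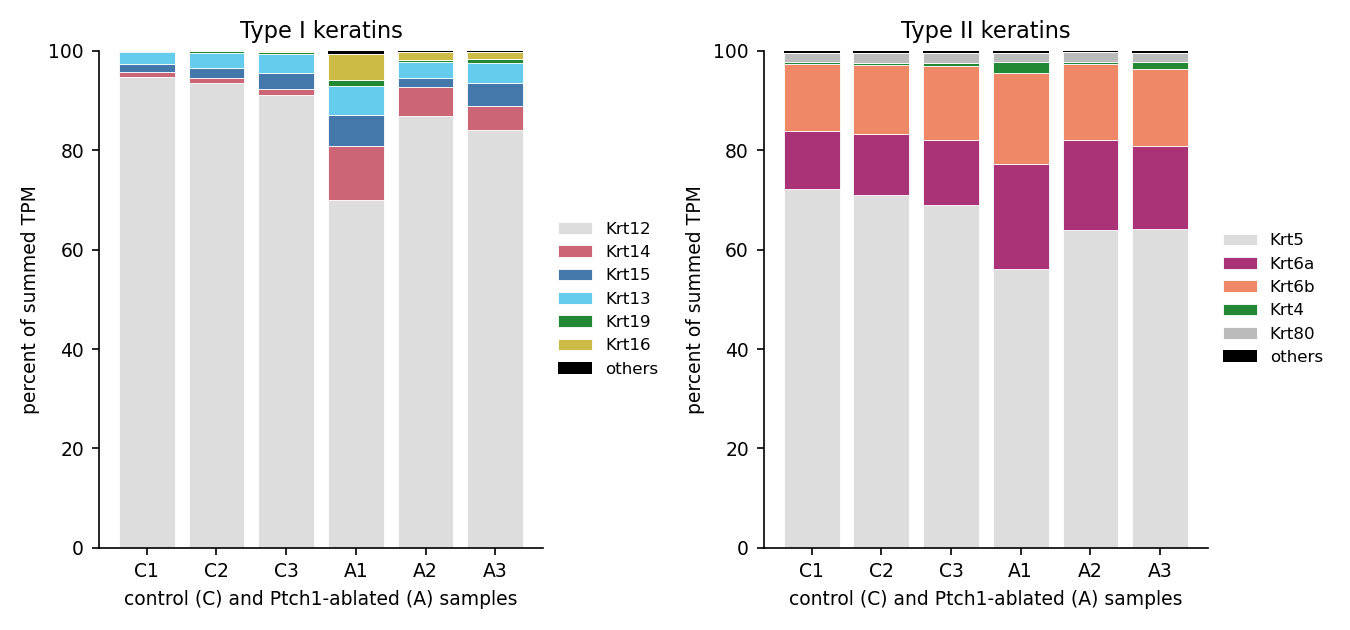
Share of each keratin in the summed TPM of all type I (left) and all type II (right) keratins, 1 stacked bar per control (C) and Ptch1-ablated (A) sample. *Krt12* takes 91.0% to 94.7% of type I in control and 69.9% to 87.0% in Ptch1-ablated samples, with *Krt14* and *Krt16* filling much of the difference.

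The other keratins of the table were read for the partners that the set leaves out. Of 11 other type II keratins tested, 2 were higher and 2 lower at any fold, and of 5 other type I keratins 2 were higher. *Krt6a*, a type II keratin of stressed and hair-follicle epithelium that the cornea also makes, was at 4134, 4308 and 4433 TPM in control and at 8803, 7458 and 6341 TPM in Ptch1-ablated samples. It was higher in every Ptch1-ablated sample than in any control and rose with a log2 fold change of 0.86 (SE 0.15, edgeR adjusted p = 0.0166). Its near relative *Krt6b* was at 4698, 4879 and 5045 TPM in control and at 7635, 6289 and 5782 TPM in Ptch1-ablated samples, without overlap, but did not pass the test (log2 fold change 0.48, adjusted p = 0.057). *Krt16*, a type I partner of K6, was at 20.1, 5.63 and 16.1 TPM in control and at 2770, 980 and 718 TPM in Ptch1-ablated samples, a log2 fold change of 6.80 (adjusted p = 0.0065). *Krt16*, *Krt6a* and *Krt14* shared 1 order of Ptch1-ablated samples, highest in replicate 1 and lowest in replicate 3, which differs from that of *Krt15*, *Krt13*, *Krt4* and *Krt19*. *Krt17*, another stress keratin, had a log2 fold change of 2.80 (adjusted p = 0.0368), and *Krt90* one of 1.96 (adjusted p = 0.0107). *Krt78* had one of -0.60 (adjusted p = 0.0319). *Krt2* had at most 3 counts in each sample.

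Genes that regulate keratin transcription were read from a list of 24 tested members, of which 3 were higher and 1 lower at any fold, with a median log2 fold change of 0.06. *Pax6* and *Klf4*, which act on *Krt12*, had log2 fold changes of -0.22 and 0.19 (edgeR adjusted p = 0.112 and 0.174). *Klf5* was at 0.07 (adjusted p = 0.495), and *Trp63*, the master regulator of basal keratins including *Krt5* and *Krt14*, at -0.03 (adjusted p = 0.838). *Trp63* was at 159, 175 and 196 TPM in control and at 157, 187 and 180 TPM in Ptch1-ablated samples, and the groups overlapped. The members that passed were the early-response factor *Klf6* at 1.12, *Cebpb* at 0.65 and *Grhl3* at 0.56, and *Hes1*, the Notch target, at -0.85.

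Proteins that tie keratin filaments to the membrane were read from a list of 23, of which 5 were higher and 1 lower at any fold, with a median of 0.15. *Itga6* and *Itgb4*, the integrin pair of hemidesmosomes, rose with log2 fold changes of 0.81 and 0.38 (edgeR adjusted p = 0.0038 and 0.0309). *Itga6* was at 159 to 170 TPM in control and 278 to 290 TPM in Ptch1-ablated samples. The desmosomal cadherins *Dsg2* and *Dsg3* and the plaque protein *Pkp3* rose by 0.60, 0.55 and 0.45, whereas *Dsg1a*, the cadherin of the upper layers, fell by 0.55. Of 21 chaperones, ligases and kinases that act on keratins, 5 were higher and 0 lower, with a median of 0.14, the adaptor *Sfn* at 0.77 first among them, then *Hspa8* at 0.48, *Hspa1b* at 0.41, *Usp1* at 0.31 and *Ywhaz* at 0.29.

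Of 6 proliferation genes, 3 were higher, *Cdk1* at 0.81, *Mki67* at 0.73 and *Top2a* at 0.74, with a median over the 6 of 0.74. Of 6 stromal markers tested 1 passed, *Aldh1a1*, which was lower at -2.03, and 0 of the 6 had a log2 fold change above 0, with a median of -1.95. The stromal genes *Col1a2*, *Col6a1*, *Vim* and *Prrx1* were high in control replicate 3 alone, and the part of that sample in the median was not tested. The list held 12 genes with values, and the rest did not pass the filter on low counts. Among those, *Dcn* was at 0.29, 0.06 and 0.36 TPM in control and higher, at 0.83, 0.54 and 1.35 TPM, in Ptch1-ablated samples. The list's summed TPM was 187, 251 and 328 in control and 27.9, 80.6 and 80.9 in Ptch1-ablated samples, most of it *Aldh1a1* and, in control replicate 3, also *Col1a2* and *Vim*. The stromal proteoglycan *Kera* had at most 3 counts in each sample. Of 3 corneal endothelium markers tested 1 was higher, the widely made *Tjp1* at 0.37, and of 4 melanocyte markers 0 passed.

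The genes nearest to *Krt12* in their profile over the 6 samples were *Hspbap1*, *Lpar1* and *Med9*, with root mean square distances of 0.0359, 0.0365 and 0.0369 in log2 CPM centred on the control mean. Such a flat profile is common, and 245 genes lay within 0.1 of it. No gene lay that near to *Krt14*, whose nearest were the aldo-keto reductase *Akr1b8* at 0.218, the AP-1 factor *Jun* at 0.261 and *BC037156* at 0.329. *Jun* was at 56.9, 62.2 and 61.1 TPM in control and at 421, 309 and 227 TPM in Ptch1-ablated samples, highest in replicate 1 and lowest in replicate 3 as *Krt14* was. For *Krt4*, a gene chosen for this after its values were seen, *Krt19* was the nearest of all tested genes at 0.236.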

How the data were processed

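Bulk RNA-seq of 6 samples of corneal epithelial cells was analysed, 3 in each of 2 groups. The authors removed rRNA, sequenced on BGISEQ-500, aligned clean reads with Bowtie2 2.2.5 and quantified genes with RSEM 1.2.12; the submitters' processing notes name build mm9, and the labels name an Illumina TruSeq kit. The authors deposited expected counts, which are RSEM's estimates per gene and not scaled for depth, and TPM, scaled in each sample for length and depth. The deposited FPKM values were not used. The deposited columns of group averages were also not used. Other sample columns left out numbered 0.

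Before the fit the expected counts were made whole by rounding, since 39.4% of values above 0 were not whole. Genes passing edgeR's filterByExpr entered the quasi-likelihood fit of edgeR 4.0.16 (R 4.3.3), whose TMM scaling factors lay between 0.960 and 1.03, with calls requiring an adjusted p no larger than 0.05 and a change of 2-fold or more. Standard errors are the absolute log2 fold change over the square root of F. Ratios and sums used TPM with two-sided exact permutation tests in scipy 1.17.1. Of 17784 genes listed, 17743 had at least 1 count. Within groups the chi-square per degree of freedom between samples was 10.1 to 37.8, so no library was a repeat of another. In a simulated comparison of these groups over 12999 genes, 200 of them shifted by 1.5 on the log2 scale, 93.0% were recovered and 2.11% of calls were false. The simulated spread between samples was set by abundance alone and was equal in both groups. The recovery therefore does not describe genes with a wider spread, such as *Krt4*, with a coefficient of variation of 68.5% in Ptch1-ablated samples. The methods state 3 biological replicates per group.

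The keratins and the gene lists were chosen with earlier results of these data known. All 10 keratins are named. Other keratins are named at an adjusted p of at most 0.05, and *Krt1*, *Krt2*, *Krt6a*, *Krt7*, *Krt16* and *Krt17* always. At most 5 such genes are named per other list, lowest p first, and *Pax6*, *Klf4*, *Klf5* and *Trp63* always, and the 3 nearest profiles of *Krt12* and *Krt14*. Cell type markers named beyond this (*Gpha2*, *Ifitm3*, *Agr2*, *Col1a2*, *Col6a1*, *Vim*, *Prrx1*, *Dcn*, *Ptprc*, *S100a8*, *S100a9*, *Cd68*, *Itgam*, *Cd74*, *H2-Aa* and those at most at 3 counts), *Krt6b* and *Ptch1* were chosen after their values were seen. Shared stretches were counted in GENCODE M21 and promoters taken from RefSeq tables of build GRCm38.p6, which is not the authors' build; no coordinate was moved between builds. Alternatives were DESeq2 1.42.0, limma-voom and limma 3.58.1 on log2(TPM + 1) or log2(TPM + 0.1) where the mean TPM reached 1, other size factors, filters and thresholds, a replicate block, and each sample left out in turn.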

Additional observations from a re-analysis of the deposited data

How the results depend on the processing

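The count of called keratins was 1 and became 2 with DESeq2, which added *Krt4* (log2 fold change 1.80), and 2 at any fold change; over all genes DESeq2 called 521 and the edgeR fit 420. Leaving out 1 sample gave 0 to 5 called keratins. The 0 came without control replicate 2, where 59 genes were called in all, and the 5 without Ptch1-ablated replicate 2, where 395 were. The log2 fold change then ran from 2.33 to 3.08 for *Krt14*, 0.53 to 1.32 for *Krt15*, 1.13 to 2.22 for *Krt4*, 0.90 to 1.82 for *Krt19*, -1.02 to -0.81 for *Krt8* and -0.011 to 0.088 for *Krt5*. *Krt14* was not called without control replicate 2 (2.75). *Krt5* changed sign at -0.0091 without control replicate 3 and at -0.011 without Ptch1-ablated replicate 2. Why single libraries decide these calls was not tested.

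The summed level of the 10 keratins, a log2 difference of 0.026, also changed sign, at -0.0043 without control replicate 3 and -0.028 without Ptch1-ablated replicate 2, and ran to 0.060 under the other omissions. The other alternatives that used all 6 samples kept the direction and the call of each of the 10 keratins, apart from *Krt4* with DESeq2. The 9 ratios and the sum, which have no such call, kept their direction with expected counts in place of TPM, and the ratios kept it with each sample left out. With all 6 samples, *Krt14* ran from 2.16, with all *Krt16* counts subtracted, to 2.82. With the replicate number as a block (replicate block), *Krt14* was 2.70 (edgeR adjusted p = 0.0115) and 1 keratin was called. Deviations of same-numbered samples correlated at 0.105, -0.0137 and 0.0189, so the numbers were not taken to pair the samples. Depth limits *Krt8*, *Krt18* and *Krt10*, the keratins with under 300 counts in each sample, and p values with 3 samples per group cannot fall below 0.1 in the exact tests.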
